A study of Homo sapiens with 8 samples.

Results

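The genes described here are 37 genes that cells use to pass through G2 and mitosis, among them the cyclins and CDK1, the mitotic kinases, the spindle checkpoint, kinetochore, spindle and cytokinesis genes. They are all genes of a fixed list of names whose symbol the platform annotation gives to a probe set. The list was drawn up with earlier results of these data known, so its counts are a description. All 37 were found, out of 19775 genes on the array. Where a gene had several probe sets, the one with the highest mean over the 8 arrays represented it.

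RNA was taken from 293T cells (a line from human embryonic kidney with the large T antigen of SV40) that had been kept for 10 h with 10 µM 5-NA, 10 µM CBU-028 or 10 µM EerI, and from control cells whose solvent treatment is not stated. EerI (Eeyarestatin I) inhibits ER-associated degradation (ERAD) and joins a nitrofuran-containing (NFC) domain to an aromatic domain. 5-NA (5-nitrofuryl-acrolein) corresponds to its NFC domain. CBU-028, known by its code name, also has the NFC domain, joined to a different group that contains benzene. In the sample titles of the 5-NA group stands the experiment number of a further compound, CBU-029, so every 5-NA value rests on the other labels, which name 5-NA. Each group had 2 arrays, described as duplicates of 1 cell line. The p-values therefore measure the spread between 2 samples of a group, pooled over the 4 groups. For limma, this spread was also drawn toward that of all probe sets.

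The RNAs of these genes are made late in the cell cycle. In resting and G1 cells the DREAM complex holds their promoters silent, and from S phase into mitosis B-MYB and FOXM1, brought there by the MuvB core, turn them on. Many of these promoters carry a cell cycle homology region (CHR), the element that MuvB contacts, together with CCAAT boxes that bind the factor NF-Y. In a culture that is not synchronised, the measured level of such an RNA depends on the share of cells in G2 and mitosis as well as on the RNA in each such cell, and the arrays, which read whole cultures, cannot tell fewer such cells from less RNA per cell.

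To show the kinds of promoter among these genes, with CHR letters, CCAAT or both, the 200 bases before the start of 6 genes described below, picked by hand with their values known, are printed from RefSeq (GRCh38.p14), 5′ to 3′ on the strand of the gene. Capitals mark matches to the CHR letters TTTGAA or TTCGAA and to CCAAT, on either strand, so that CCAAT may also read ATTGG and TTTGAA may read TTCAAA.
KIF20A (chr5:138178912-138179111, plus strand): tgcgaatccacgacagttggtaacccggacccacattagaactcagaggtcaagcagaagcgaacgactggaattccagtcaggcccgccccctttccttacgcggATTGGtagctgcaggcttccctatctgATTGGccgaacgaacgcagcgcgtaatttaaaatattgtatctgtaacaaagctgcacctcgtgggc
CCNB1 (chr5:69166950-69167149, plus strand): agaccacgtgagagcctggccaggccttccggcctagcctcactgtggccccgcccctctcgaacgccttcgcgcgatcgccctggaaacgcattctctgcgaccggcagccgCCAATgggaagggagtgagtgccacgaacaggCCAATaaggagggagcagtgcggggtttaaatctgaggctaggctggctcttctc
PLK1 (chr16:23678689-23678888, plus strand): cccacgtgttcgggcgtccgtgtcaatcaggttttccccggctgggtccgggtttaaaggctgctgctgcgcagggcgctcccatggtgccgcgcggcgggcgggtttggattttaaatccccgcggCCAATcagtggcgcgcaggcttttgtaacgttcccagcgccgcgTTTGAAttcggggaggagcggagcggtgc
ANLN (chr7:36389662-36389861, plus strand): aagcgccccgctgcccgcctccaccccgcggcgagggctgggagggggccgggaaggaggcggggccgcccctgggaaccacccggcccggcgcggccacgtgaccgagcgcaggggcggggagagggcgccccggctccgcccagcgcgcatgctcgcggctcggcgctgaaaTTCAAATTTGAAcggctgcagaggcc
ASPM (chr1:197146670-197146869, minus strand): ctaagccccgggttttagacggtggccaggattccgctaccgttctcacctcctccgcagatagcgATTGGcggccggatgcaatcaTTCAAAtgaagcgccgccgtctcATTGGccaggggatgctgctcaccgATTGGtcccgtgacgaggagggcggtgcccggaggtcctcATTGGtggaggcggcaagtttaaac
CDC20 (chr1:43358781-43358980, plus strand): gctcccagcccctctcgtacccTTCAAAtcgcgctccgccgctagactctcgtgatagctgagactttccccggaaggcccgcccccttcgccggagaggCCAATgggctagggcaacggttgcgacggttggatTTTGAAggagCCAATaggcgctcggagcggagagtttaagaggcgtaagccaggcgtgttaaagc
In PLK1, TTTGAA begins 29 bases before the start and CCAAT 73 bases before it. In ANLN a pair of matches abut, beginning 26 and 20 bases before the start, and no CCAAT was found. KIF20A and CCNB1 each hold 2 CCAAT matches and none of the searched CHR letters. ASPM holds 4 CCAAT matches and 1 CHR match, which begins 113 bases before the start, and CDC20 holds 2 of each kind. Over windows of 250 bases before to 50 bases after the start, 33 of the 37 genes were in the RefSeq table, which lacked AURKA, TTK, UBE2C and TPX2. The CHR letters occurred in 25 of these 33 genes (75.8%), against 19.5% of the 27305 genes in the table. CCAAT occurred in 27 (81.8%), against 39.7% of all genes, and at least 2 matches in 17 (51.5%), against 12.9%. Both in the same window were found in 21 of the 33 (63.6%), against 7.85% of all genes. A gene counted if any of its windows held the letters, CHR and CCAAT matches were counted separately whether or not they overlapped, and a match describes the letters only, not a bound site.

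The authors made the values with RMA, which corrects background, brings all arrays to a common distribution and gives each probe set a log2 value. A difference of 1 on this scale is 2-fold, and since probe sets differ in brightness for the same amount of RNA, the level of 1 gene was not ranked against that of another. The genes were well measured, with means over the 8 arrays between 9.35 for CENPE and 13.3 for PTTG1 and a median of 11.0. The median level of these genes on an array had an SD of 0.0662 between the duplicates of a group, pooled over the groups. From limma fitted over all 8 arrays, a difference between groups had a median SE of 0.087 for these genes, and a change was called at a Benjamini-Hochberg adjusted p under 0.05 over all probe sets. With 2 arrays on each side, the smallest p that an exact test allows is 0.333. As a check of the cell line, the 5 markers of 293T cells (VIM, KRT8, KRT18, NEFL and NEFM) had log2 values from 9.31 to 13.8 over the 8 arrays, and the 6 leukocyte markers from 4.40 for PTPRC to 7.87 for CD79A. The median of all probe sets lay between 6.89 and 6.93, so some leukocyte markers were near it, and a check of this kind across probe sets is a loose one.

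As a group, the mitosis and G2/M genes were lower with CBU-028 and 5-NA. The median log2 difference from control over the 37 genes was -0.26 with 5-NA, -0.45 with CBU-028 and -0.07 with EerI, where the median over all genes was -0.03, -0.01 and 0.00. On single arrays, the median of the 37 genes stood -0.28 and -0.24 from the control mean with 5-NA, -0.46 and -0.51 with CBU-028, -0.07 and -0.07 with EerI, and -0.01 and 0.01 in control cells. Both CBU-028 arrays lay below both 5-NA arrays, and these below both EerI arrays. Of the 37 genes, 34 and 31 were below their control mean on the 5-NA arrays, 37 and 37 on the CBU-028 arrays, and 26 and 27 on the EerI arrays. On the control arrays themselves, 21 and 16 were below it. Of all 19775 genes, the group mean was below control in 11051 with 5-NA, 10333 with CBU-028 and 10011 with EerI.

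**Figure D1:**
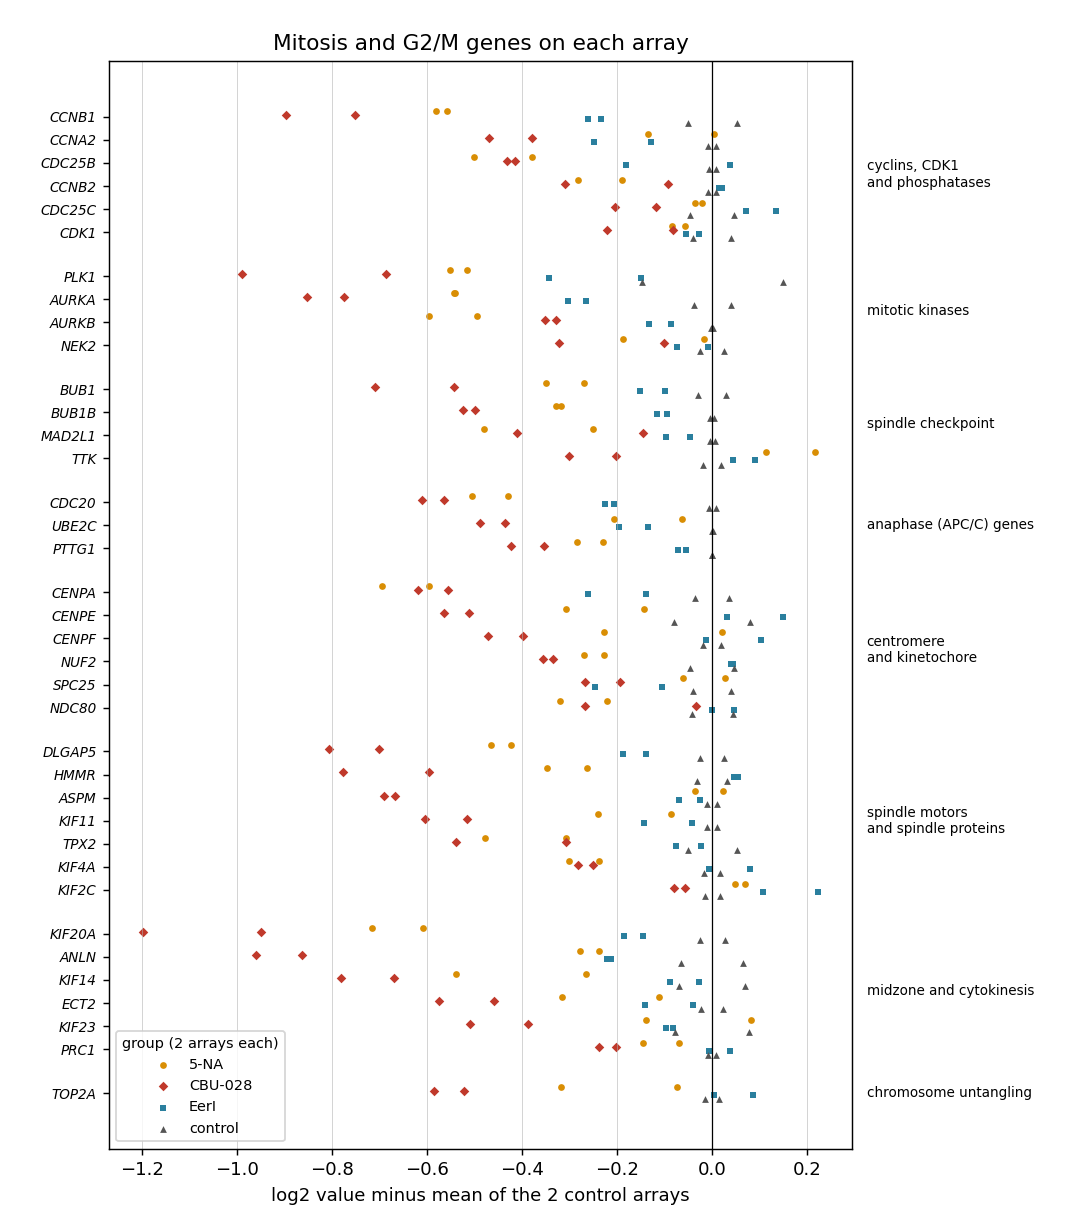
Log2 value of each of the 37 mitosis and G2/M genes on each array, minus the mean of the 2 control arrays (horizontal axis), with the genes ordered by role (vertical axis) and 2 points per group. The CBU-028 points of all 37 genes lie left of 0, those of KIF20A farthest at a mean of -1.07, while the EerI points stay within -0.35 and 0.23.

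With CBU-028, 26 of the 37 genes were lower than in control cells and none higher, where 7.10% of all genes were lower and 5.49% higher. Among the 7129 genes with a mean log2 value of at least 9, to which all 37 belong, 9.90% were lower. The differences of the 26 genes ran from -1.07 for KIF20A to -0.34 for AURKB, which is 47.5% to 79.0% of the control level. The other 11 genes were also below control, from -0.28 for MAD2L1 to -0.07 for KIF2C, with adjusted p from 0.0677 to 0.674, and their 95% intervals reached from -0.53 to 0.11. In 36 of the 37 genes both CBU-028 arrays lay below both control arrays, where 29.4% of all genes and 38.3% of those with a mean of at least 9 did so. Without control replicate 1 the count of lower genes was 14 and without control replicate 2 it was 13, while leaving out any other array gave 22 to 26.

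With 5-NA, 15 of the 37 genes were lower than in control cells and none higher by their representing probe sets, where 10.9% of all genes were lower and 7.87% higher (17.6% lower among the 7129 genes with a mean of at least 9). Their differences ran from -0.66 for KIF20A to -0.27 for KIF4A, 63.2% to 82.9% of the control level. The 22 others lay between -0.37 for MAD2L1 and 0.16 for TTK, with 95% intervals that reached from -0.62 to 0.35. Both 5-NA arrays were below both control arrays in 28 genes and above them in 2, where 36.3% of all genes were below and 26.2% above, and 45.3% of those with a mean of at least 9 were below. The count of 15 fell to 8 without control replicate 1, to 6 without control replicate 2, to 8 without either 5-NA array and to 10 without either EerI array, and was 20 without either CBU-028 array.

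With EerI, none of the 37 genes passed in either direction by limma, where 0.263% of all genes were lower and 0.506% higher (0.421% lower among those with a mean of at least 9). At an unadjusted p under 0.05, limma gave 5 lower and none higher, and the ANOVA named in the methods gave 8 lower and 1 higher, with none left after adjustment. The 3 with the largest differences were AURKA at -0.28, CCNB1 at -0.25 and PLK1 at -0.25, with adjusted p of 0.213, 0.347 and 0.621 by limma. The 95% intervals of the 37 genes reached from -0.54 to 0.34. Both EerI arrays lay below both control arrays in 20 genes and above them in 5, where 27.2% of all genes were below and 24.3% above, and 39.2% of those with a mean of at least 9 were below.

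Among the cyclins, CDK1 and its phosphatases, CCNB1 differed most. CCNB1 encodes cyclin B1, the partner that CDK1 needs to start mitosis. Its log2 values were 12.26 and 12.23 with 5-NA, 12.06 and 11.92 with CBU-028, 12.55 and 12.58 with EerI, and 12.76 and 12.87 in control cells. The groups did not overlap, with CBU-028 lowest and control highest. The differences from control were -0.57 with 5-NA (adjusted p = 0.00276 by limma) and -0.82 with CBU-028 (adjusted p = 0.000801 by limma), with an SE of 0.0848 each. CDC25B, a phosphatase that removes the inhibitory phosphates of CDK1, had 10.54 and 10.42 with 5-NA, 10.51 and 10.49 with CBU-028, 10.96 and 10.74 with EerI, and 10.91 and 10.93 in control cells. It was lower by like amounts with 5-NA and CBU-028, at -0.44 and -0.42 from control, whereas the EerI arrays lay on both sides of control. CCNA2, which encodes the cyclin A of S phase and G2, passed only with CBU-028 (-0.42, adjusted p = 0.0175 by limma), was at -0.07 with 5-NA, and differed between the compounds by 0.36 (adjusted p = 0.0325 by limma). A second CCNA2 probe set, with a mean of 11.1, was at -0.40 with CBU-028 and did not pass (adjusted p = 0.0854 by limma). CDK1 itself, the kinase these genes serve, had log2 values of 12.67 and 12.70 with 5-NA, 12.67 and 12.53 with CBU-028, 12.70 and 12.73 with EerI, and 12.71 and 12.79 in control cells. It passed in no comparison, with differences from control of -0.07, -0.15 and -0.04 with 5-NA, CBU-028 and EerI. CCNB2, a second B-type cyclin (-0.24 with 5-NA and -0.20 with CBU-028), and CDC25C, a further CDK1 phosphatase (-0.03 and -0.16), did not pass either.

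Of the 4 mitotic kinases, 3 were lower with both compounds. AURKA, the kinase that matures centrosomes and builds the spindle, had 11.70 and 11.70 with 5-NA, 11.47 and 11.39 with CBU-028, 11.94 and 11.98 with EerI, and 12.21 and 12.28 in control cells. Its groups did not overlap, and it differed from control by -0.54 with 5-NA (adjusted p = 0.00241 by limma) and by -0.81 with CBU-028 (adjusted p = 0.000589 by limma). PLK1, the polo-like kinase that drives entry into mitosis and many later steps, had 10.01 and 10.04 with 5-NA, 9.87 and 9.57 with CBU-028, 10.41 and 10.22 with EerI, and 10.41 and 10.71 in control cells. Its duplicates were farther apart than those of AURKA, with an SE of 0.132, and 1 EerI array equalled a control array to 2 decimals. PLK1 was at -0.53 with 5-NA (adjusted p = 0.0257 by limma) and -0.84 with CBU-028 (adjusted p = 0.00517 by limma). AURKB, the kinase of the chromosomal passenger complex, which corrects wrong attachments of chromosomes, had 10.93 and 10.83 with 5-NA, 11.10 and 11.07 with CBU-028, 11.34 and 11.29 with EerI, and 11.43 and 11.42 in control cells. Here 5-NA was lowest, at -0.55 from control (adjusted p = 0.00234 by limma), against -0.34 with CBU-028 (adjusted p = 0.0271 by limma), and the difference between the compounds of -0.21 did not pass (adjusted p = 0.142 by limma). NEK2, a centrosomal kinase, was at -0.10 with 5-NA and -0.21 with CBU-028 and did not pass.

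**Figure D2:**
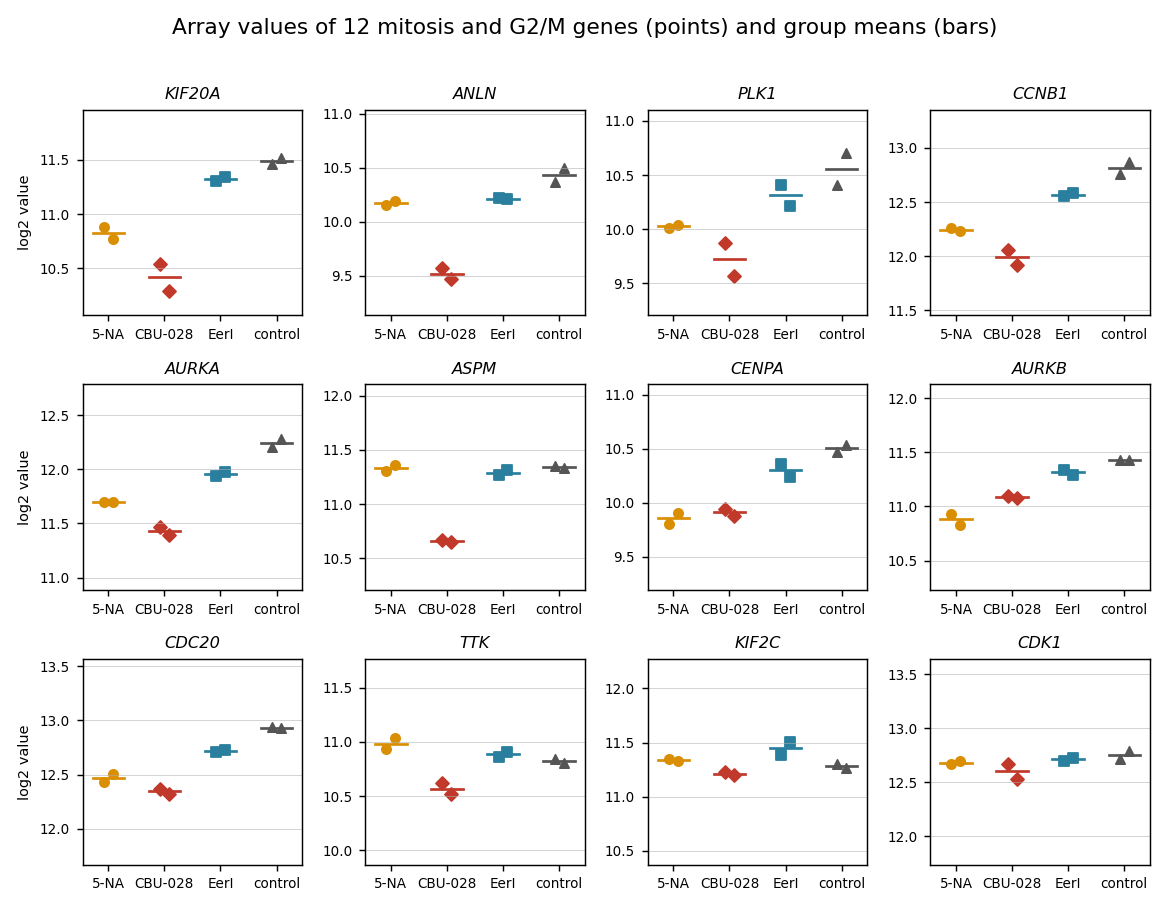
Log2 values of 12 of the genes on the 2 arrays of each group (points) with the group means (bars), each panel spanning the same range of 1.9 on the log2 scale. CBU-028 is lowest in KIF20A, ANLN and ASPM, 5-NA is lowest in AURKB, and ASPM with 5-NA lies at the control level (11.30 and 11.36 against 11.35 and 11.33).

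The spindle checkpoint holds chromosome separation until every kinetochore is attached. BUB1, a checkpoint kinase at kinetochores, had 10.11 and 10.20 with 5-NA, 9.92 and 9.76 with CBU-028, 10.31 and 10.36 with EerI, and 10.44 and 10.49 in control cells, with control highest, CBU-028 lowest and no overlap. The difference was -0.31 with 5-NA (adjusted p = 0.043 by limma) and -0.63 with CBU-028 (adjusted p = 0.00299 by limma). BUB1B, which encodes the checkpoint protein BUBR1, was lower with both, at -0.32 with 5-NA and -0.51 with CBU-028. TTK, the MPS1 kinase at the head of the checkpoint, went apart between the compounds: it had 10.93 and 11.04 with 5-NA, 10.62 and 10.52 with CBU-028, 10.86 and 10.91 with EerI, and 10.84 and 10.80 in control cells. Neither 5-NA (0.16) nor CBU-028 (-0.25) passed against control, but the difference between them did (0.42, SE 0.0819, adjusted p = 0.0136 by limma). MAD2L1, the MAD2 protein that restrains CDC20, was at -0.37 with 5-NA (adjusted p = 0.0564 by limma) and -0.28 with CBU-028. Its duplicates lay far apart in both (12.03 and 11.80 with 5-NA, 12.14 and 11.87 with CBU-028). A second MAD2L1 probe set, with a mean of 11.6, passed with both compounds. There the differences were -0.34 with 5-NA (adjusted p = 0.0312 by limma) and -0.36 with CBU-028 (adjusted p = 0.037 by limma). A further one, with a mean of 9.25, passed with neither.

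All 3 anaphase genes were lower with CBU-028. CDC20, which activates the anaphase-promoting complex, had 12.43 and 12.51 with 5-NA, 12.37 and 12.32 with CBU-028, 12.71 and 12.73 with EerI, and 12.94 and 12.93 in control cells. It was also lower with 5-NA, at -0.47 (adjusted p = 0.00422 by limma) against -0.59 with CBU-028 (adjusted p = 0.00225 by limma), and the EerI arrays lay between. UBE2C, the ubiquitin-conjugating enzyme of that complex, was at -0.46 with CBU-028 (adjusted p = 0.00936 by limma) and at -0.13 with 5-NA. PTTG1, the securin that keeps separase inactive, was at -0.39 with CBU-028 (adjusted p = 0.0142 by limma) and -0.26 with 5-NA (adjusted p = 0.0529 by limma), on a probe set of the _x_at kind, whose probes may also match other transcripts.

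At centromeres and kinetochores, 4 of 6 genes were lower with CBU-028 and 1 with 5-NA. CENPA, the histone variant that marks centromeres, had 9.81 and 9.91 with 5-NA, 9.95 and 9.88 with CBU-028, 10.36 and 10.24 with EerI, and 10.47 and 10.54 in control cells. The 5-NA and CBU-028 arrays overlapped and lay below all others, at -0.65 (adjusted p = 0.00162 by limma) and -0.59 (adjusted p = 0.00354 by limma) from control. The probe set of CENPA is also of the _x_at kind. CENPE, a kinetochore motor, CENPF, a large kinetochore protein, and NUF2, a subunit of the NDC80 complex that grips microtubules, were lower with CBU-028 at -0.54, -0.44 and -0.35, and were at -0.23, -0.10 and -0.25 with 5-NA. Other subunits of the same complex, NDC80 and SPC25, did not pass, at -0.15 and -0.23 with CBU-028 and -0.27 and -0.02 with 5-NA. For CENPF, a dimmer probe set with a mean of 8.29 passed with both compounds. It was at -0.51 with CBU-028 (adjusted p = 0.0084 by limma) and -0.31 with 5-NA (adjusted p = 0.0469 by limma).

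Of the 7 spindle motors and spindle proteins, 5 were lower with CBU-028 and 4 with 5-NA. ASPM, which acts at spindle poles, had 11.30 and 11.36 with 5-NA, 10.67 and 10.65 with CBU-028, 11.27 and 11.31 with EerI, and 11.35 and 11.33 in control cells. The CBU-028 arrays stood alone below the other 6, at -0.68 from control (SE 0.0758, adjusted p = 0.00113 by limma), while 5-NA was at -0.01. A dimmer ASPM probe set, with a mean of 7.44, was at 0.50 with 5-NA (adjusted p = 0.028 by limma) and was the only probe set of any of the 37 genes that passed upwards against control. DLGAP5, a microtubule-binding protein of the spindle, had 11.14 and 11.10 with 5-NA, 10.86 and 10.76 with CBU-028, 11.42 and 11.37 with EerI, and 11.54 and 11.59 in control cells, a fall of -0.45 with 5-NA and -0.75 with CBU-028. HMMR, a spindle protein also known as a hyaluronan receptor, had 10.65 and 10.73 with 5-NA, 10.40 and 10.22 with CBU-028, 11.04 and 11.05 with EerI, and 10.96 and 11.03 in control cells. With EerI, HMMR was just above both control arrays, whereas 5-NA was at -0.30 (adjusted p = 0.0478 by limma) and CBU-028 at -0.69 (adjusted p = 0.00211 by limma). KIF11, the motor that pushes spindle poles apart, was at -0.56 with CBU-028 (adjusted p = 0.00508 by limma) and -0.16 with 5-NA. TPX2, which activates AURKA on the spindle, was lower by like amounts with 5-NA (-0.39) and CBU-028 (-0.42). KIF4A, a chromosome-bound motor, was the only gene that passed with 5-NA (-0.27, adjusted p = 0.0482 by limma) and not with CBU-028, where it was also at -0.27 (adjusted p = 0.0677 by limma), so that the pair lies on either side of the threshold. KIF2C, which takes microtubules apart at their ends, was at 0.06 with 5-NA, -0.07 with CBU-028 and 0.16 with EerI and did not pass.

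Among the 6 genes of the spindle midzone and cytokinesis were KIF20A and ANLN, the genes with the largest differences with CBU-028. KIF20A, a motor of the midzone that brings kinases to the site of cleavage, had 10.88 and 10.77 with 5-NA, 10.54 and 10.29 with CBU-028, 11.30 and 11.34 with EerI, and 11.46 and 11.52 in control cells. All 4 groups were apart, and the CBU-028 difference of -1.07 (SE 0.0983, adjusted p = 0.000491 by limma) was the only one of the 37 past 2-fold, against -0.66 with 5-NA (adjusted p = 0.00271 by limma). ANLN, the scaffold anillin of the contractile ring, had 10.16 and 10.19 with 5-NA, 9.57 and 9.47 with CBU-028, 10.22 and 10.21 with EerI, and 10.37 and 10.50 in control cells. CBU-028 stood apart at -0.91 (adjusted p = 0.000491 by limma), while 5-NA (-0.26) and EerI (-0.22) lay close together and did not pass. KIF14, a midzone motor, had 9.42 and 9.69 with 5-NA, 9.29 and 9.18 with CBU-028, 9.87 and 9.93 with EerI, and 10.03 and 9.89 in control cells. It was lower with both compounds, at -0.40 with 5-NA (adjusted p = 0.0342 by limma) and -0.73 with CBU-028 (adjusted p = 0.00382 by limma), with 5-NA arrays far apart. KIF23, the motor of the centralspindlin complex, had 10.16 and 10.39 with 5-NA, 9.92 and 9.79 with CBU-028, 10.21 and 10.22 with EerI, and 10.23 and 10.38 in control cells. The 5-NA arrays spanned the control arrays, and the CBU-028 arrays lay below all others at -0.45 (adjusted p = 0.0253 by limma). ECT2, which switches on the GTPase RhoA for the ring, was at -0.52 with CBU-028 and -0.21 with 5-NA. PRC1, which bundles midzone microtubules, was at -0.22 and -0.11 and did not pass. TOP2A, the topoisomerase that untangles sister chromosomes, was at -0.55 with CBU-028 (adjusted p = 0.0083 by limma) and -0.20 with 5-NA. A second TOP2A probe set, with a mean of 10.7, was at -0.34 with CBU-028 and did not pass (adjusted p = 0.224 by limma).

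By the calls of their representing probe sets, 14 genes were lower with both 5-NA and CBU-028, 12 only with CBU-028, KIF4A only with 5-NA, and 10 with neither. The share of all genes with each of these joint calls was not counted. The joint counts therefore describe the mitosis and G2/M genes only, and whether their overlap is unusual was not tested. Both comparisons use the same control arrays, and a call in one and not in the other is no test of a difference, so the compounds were also set against each other directly. There were 3 pairs of compounds, all at the same dose and time.

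Between 5-NA and CBU-028, 11 genes were higher with 5-NA and none lower, where 6.47% of all genes were higher and 7.33% lower (9.48% higher among those with a mean of at least 9). The median of the 37 was 0.25, and 27 genes had both 5-NA arrays above both CBU-028 arrays, where 22.7% of all genes and 29.3% of those with a mean of at least 9 did. Of the 12 genes called only with CBU-028, 7 passed this test, and of the 14 called with both, 3 did. Those sets were sorted on the same 5-NA and CBU-028 arrays, so the split between them is no separate result. The 5 largest differences among the 11 were ASPM at 0.67 (SE 0.0758, adjusted p = 0.00156 by limma), ANLN at 0.65, KIF23 at 0.42, TTK at 0.42 and KIF20A at 0.41. ASPM with 5-NA was thus at 159% of its level with CBU-028, and ANLN at 157%. For the 26 genes that did not pass, the differences ran from -0.21 for AURKB to 0.33 for CENPF, with 95% intervals from -0.38 to 0.60; a p that misses the threshold does not show that the compounds act alike on them. The count of 11 was 2 without 5-NA replicate 2, 7 without 5-NA replicate 1, 5 without CBU-028 replicate 2 or either control array, and 4 without either EerI array. A fit of the 4 compared arrays alone gave 2, ASPM and ANLN.

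**Figure D3:**
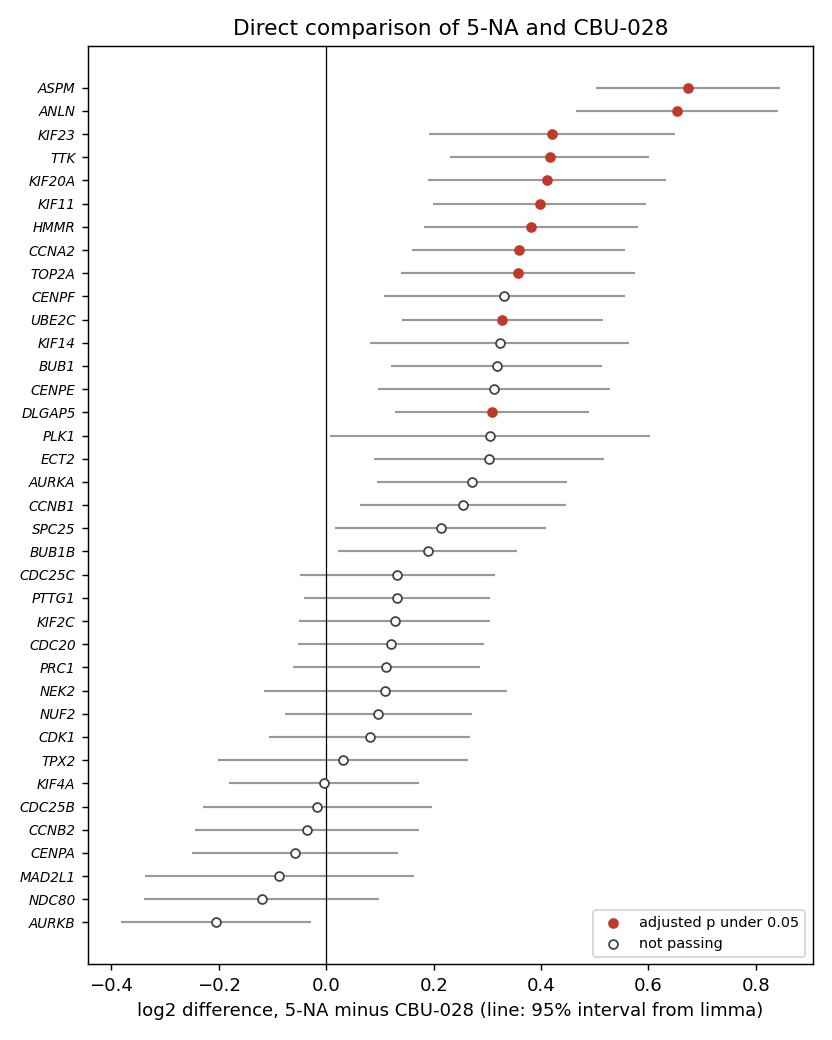
Log2 difference of 5-NA minus CBU-028 (horizontal axis) with its 95% interval from limma for each of the 37 genes (vertical axis), sorted by size. Filled points pass an adjusted p under 0.05, 11 in all, led by ASPM at 0.67 and ANLN at 0.65. The difference of AURKB is lowest, at -0.21.

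EerI and 5-NA share the NFC domain, and 5-NA lacks the aromatic domain. Between them, 9 of the 37 genes were lower with 5-NA and none higher, where 9.66% of all genes were lower and 7.93% higher (15.0% lower among those with a mean of at least 9). The median difference was -0.24, and both 5-NA arrays lay below both EerI arrays in 27 genes, where 35.1% of all genes and 41.6% of those with a mean of at least 9 did so. The 5 largest were KIF20A at -0.50 (adjusted p = 0.0106 by limma), CENPA at -0.45, AURKB at -0.44 (adjusted p = 0.00686 by limma), CDC25B at -0.37 and HMMR at -0.36. The other 28 ran from -0.34 for KIF14 to 0.16 for SPC25, with 95% intervals from -0.59 to 0.36. The count of 9 moved with each array that was left out: it was 0 without EerI replicate 1, 2 without 5-NA replicate 1, 3 without EerI replicate 2, 5-NA replicate 2 or either control array, and 16 without either CBU-028 array.

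Between CBU-028 and EerI, 17 of the 37 genes were lower with CBU-028 and none higher, where 2.13% of all genes were lower and 1.60% higher (2.55% lower among those with a mean of at least 9). The median was -0.37, and in 36 genes both CBU-028 arrays lay below both EerI arrays, where 25.5% of all genes and 29.8% of those with a mean of at least 9 did. The largest were KIF20A at -0.91 (adjusted p = 0.00624 by limma), HMMR at -0.74, ANLN at -0.69, KIF14 at -0.67 and ASPM at -0.63. The 20 others ran from -0.59 for PLK1 to -0.05 for SPC25, with 95% intervals from -0.89 to 0.14. A fit of the 4 compared arrays alone gave 0 lower genes, and the cause was not tested. Leaving out single arrays kept the median between -0.42 and -0.35, while the count moved, as given below.

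A further 32 probe sets read 19 of the genes. Of the 12 with a mean of at least 9, 10 were below control with 5-NA and 5 of these lower by test, and all 12 were below control with CBU-028 and 6 of these lower by test. Over all probe sets of the array, 7.90% were lower and 7.32% higher with 5-NA, and 5.27% were lower with CBU-028. Of the 20 dimmer ones, 1 was lower and 1 higher with 5-NA and 2 were lower with CBU-028.

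Other RNA measures differed between the groups too. Against control, the 3 probe sets of 18S ribosomal RNA were higher by 0.52 to 1.05 with 5-NA and 0.59 to 0.98 with CBU-028 and lay between -0.06 and 0.32 with EerI, and 2 probe sets of 28S ribosomal RNA were higher by 1.22 and 1.39 with 5-NA, by 0.36 each with CBU-028 and by 0.19 and 0.30 with EerI. The remaining, dimmer 28S probe set was at 0.15 with 5-NA, -0.11 with CBU-028 and -0.13 with EerI. The 3′ minus 5′ difference of ACTB, a sign of RNA breakdown, was 0.363 on 5-NA replicate 2 and 0.0743 to 0.196 on the other 7 arrays. The residual SD over all probe sets was 0.119 with 5-NA, 0.163 with CBU-028, 0.0974 with EerI and 0.0921 in control cells. The part of these measures in the differences of the mitosis and G2/M genes was not tested.

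Other genes of the pathway were read from lists of the same processes, and their counts stand beside shares of all genes of 10.9% lower and 7.87% higher with 5-NA and 7.10% lower and 5.49% higher with CBU-028. Of 12 condensin, cohesion and chromosomal passenger genes, 4 were lower and 2 higher with 5-NA, 6 lower and 1 higher with CBU-028, and none passed with EerI. NCAPH, a condensin subunit, was at -0.68 with 5-NA and -0.36 with CBU-028, and ESPL1, the separase that cuts cohesin, at -0.27 and -0.68. CDCA5, which encodes sororin, the protector of cohesion, was the reverse, at 0.65 with 5-NA and 0.41 with CBU-028. Of 30 other kinetochore, spindle and cytokinesis genes, 8 were lower and 1 higher with 5-NA, 7 lower and 1 higher with CBU-028, and none passed with EerI. FAM83D, which positions the spindle, had 11.71 and 11.72 with 5-NA, 10.81 and 10.70 with CBU-028, 11.37 and 11.33 with EerI, and 11.61 and 11.60 in control cells, and 5-NA was above CBU-028 by 0.96 (adjusted p = 0.0006 by limma).

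Of 14 regulators of mitotic transcription, in DREAM, MuvB, B-MYB, FOXM1 and NF-Y, 3 were lower with 5-NA (21.4%, against 10.9% of all genes), 1 was higher with CBU-028 (7.14%, near the 5.49% of all genes), and none passed with EerI. FOXM1 was at -0.30 with 5-NA and -0.32 with CBU-028 (adjusted p = 0.111 and 0.114 by limma), and MYBL2, which encodes B-MYB, at 0.08 and 0.15. RBL2, which encodes the p130 subunit of DREAM, was lower with 5-NA at -0.72 (adjusted p = 0.00313 by limma). Of 14 measured subunits and regulators of the anaphase-promoting complex, 3 were lower with 5-NA, among them ANAPC4 at -0.61, and 1 was lower and 2 were higher with CBU-028.

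Brakes on CDK1 and checkpoint kinases were mostly higher where they passed. Of 13 measured genes, 6 were higher and 2 lower with 5-NA (46.2% and 15.4%), 6 higher and 1 lower with CBU-028 (46.2% and 7.69%, against 5.49% and 7.10% of all genes), and 1 higher with EerI. GADD45A, a stress-induced protein that can inhibit the CDK1-cyclin B1 complex, had 12.53 and 12.59 with 5-NA, 12.53 and 12.63 with CBU-028, 11.59 and 11.57 with EerI, and 10.98 and 10.99 in control cells. It was higher than in control cells with each compound, by 1.58 with 5-NA, 1.60 with CBU-028 and 0.60 with EerI, and the 5-NA and CBU-028 arrays overlapped. CDKN1A, the CDK inhibitor p21, had 11.38 and 11.13 with 5-NA, 10.39 and 10.45 with CBU-028, 10.15 and 10.13 with EerI, and 10.04 and 10.05 in control cells. It was higher by 1.21 with 5-NA and 0.37 with CBU-028, and the compounds differed by 0.83 (adjusted p = 0.00162 by limma). GADD45B was at 2.38 with 5-NA and 0.90 with CBU-028. The brakes named here all rose, whereas the 13 genes ran from -0.49 to 2.38 with 5-NA and from -0.75 to 1.60 with CBU-028. Of 20 G1/S and replication genes, 6 were higher and 4 lower with 5-NA (30.0% and 20.0%, against 7.87% and 10.9% of all genes), 3 higher and none lower with CBU-028 (15.0% higher), and none passed with EerI. CCNE2 and CCNE1, the E cyclins of entry into S phase, were at 0.92 and 0.86 with 5-NA, and CDT1, which licenses replication origins, at 0.76 with 5-NA and 0.62 with CBU-028. These are among the risen genes, and the 20 ran from -0.51 to 0.92 with 5-NA and from -0.33 to 0.62 with CBU-028.

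**Figure D4:**
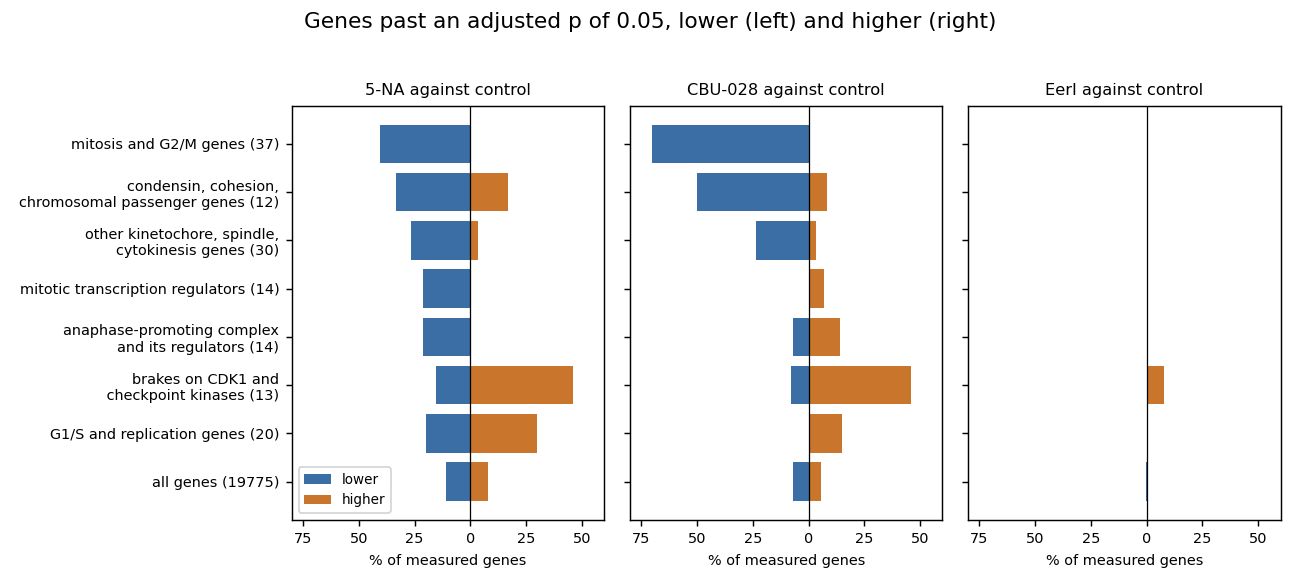
Percentage of the measured genes of each list (number in brackets) that were lower (left of 0) or higher (right of 0) than control at an adjusted p under 0.05 by limma, for 5-NA, CBU-028 and EerI. The mitosis and G2/M genes have 15, 26 and 0 lower of 37, beside 10.9%, 7.10% and 0.263% of all genes.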

How the data were processed

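RNA of 293T cells was measured on 8 arrays, 2 for each of 5-NA, CBU-028, EerI and control. The authors made the deposited log2 values with RMA, and their notes also name Partek, both without versions. The probe set identifiers belong to the HG-U133 Plus 2.0 array, not to the smaller array of that family that the methods name. RMA brings arrays to a common distribution, so a change shared by most genes cannot be seen. Of 54675 probe sets, 41097 had a single gene symbol, 1801 several and 11777 none in the platform annotation, which gave 19775 genes. The 37 genes had 69 probe sets, and 1 further probe set that names CENPA with another gene was not used.

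With limma 3.58.1 (R 4.3.3), a mean per group was fitted to all probe sets of all 8 arrays (4 residual and 5.08 prior degrees of freedom). All 6 contrasts were tested, with Benjamini-Hochberg adjustment over all probe sets of each. Intervals are 95% intervals, not adjusted for the number of genes. The fit was also run on simulated data, as a check. The number of arrays limits the precision. The 37 genes and the other gene lists were chosen with earlier results of these data known. Values on every array are given for the members with the largest absolute differences past the threshold (up to 10 for each compound against control, 5 for each pair of compounds, and the 3 largest where fewer than 3 passed), and for others that illustrate a role. Of the other lists, genes were named from those with the largest differences with 5-NA, to which ESPL1, FAM83D, FOXM1 and MYBL2 were added after their values were seen. Alternatives were floors on dim probe sets, other probe sets, renewed normalization, a replicate block, a trend in the prior variance, fits of the compared groups alone, the methods' ANOVA, fold thresholds and leaving out each array. Plots come from matplotlib 3.10.9 (Python 3.11.15).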

Additional observations from a re-analysis of the deposited data

How the results depend on the processing

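No median of the 37 genes changed sign under any alternative. Members named for the largest differences of a comparison kept their direction in it under every alternative with 1 probe set per gene. Genes of the other lists were not checked in this way. With CBU-028 against control, the 26 lower genes were 16 by the methods' ANOVA with adjustment, 12 with a fold change of at least 1.5, 1 with a fold change of at least 2 and 1 by the ANOVA at an unadjusted p with over 2-fold, and the median of -0.45 was -0.35 over all probe sets of the genes. With 5-NA against control, the 15 lower genes were 2 at 1.5-fold, 0 at 2-fold and 0 by the ANOVA with over 2-fold, and 1 gene, ASPM, was higher when any probe set counted. With EerI against control, a trend in the prior variance gave 1 lower gene, AURKA. For 5-NA against EerI, the 9 lower genes were 15 with a floor at 7, 14 after renewed quantile normalization, 19 with the trend, and 0 at 1.5-fold, at 2-fold and by the ANOVA with over 2-fold, 1 gene was higher by any probe set, and the median of -0.24 was -0.17 over all probe sets. For CBU-028 against EerI, the 17 lower genes were 30 with the trend, 2 by the adjusted ANOVA, 8 at 1.5-fold, and 0 at 2-fold, by the ANOVA with over 2-fold and in the fit of the compared groups alone. For 5-NA against CBU-028, the 11 higher genes were 19 with the trend, 4 by the adjusted ANOVA, 2 at 1.5-fold, 2 in the fit of the compared groups alone, and 0 at 2-fold and by the ANOVA with over 2-fold, and the trend gave 1 lower gene. The cause of these moves was not tested, except that fold thresholds only remove genes.

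Leaving out each array in turn gave 0 to 0 lower genes with EerI against control, 13 to 26 with CBU-028, 6 to 20 with 5-NA, 0 to 16 for 5-NA against EerI, 0 to 15 for CBU-028 against EerI, and 2 to 9 higher genes for 5-NA against CBU-028. The medians then lay between -0.08 and -0.07 with EerI, -0.51 and -0.45 with CBU-028, -0.28 and -0.23 with 5-NA, -0.24 and -0.21 for 5-NA against EerI, -0.42 and -0.35 for CBU-028 against EerI, and 0.18 and 0.30 for 5-NA against CBU-028. A group left with 1 array was assumed to vary like the others. The replicate numbers did not pair the arrays (correlation of the differences between replicates from -0.146 to 0.146), and with the replicate block 26 genes were lower with CBU-028 and 13 with 5-NA, of which 12 were among the 15. PTTG1 and CENPA have only a probe set of the _x_at kind, so leaving these out removed both from the test (24 lower genes with CBU-028, 14 with 5-NA, 8 for 5-NA against EerI).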
